A study of Mus musculus with 12 samples.

Results

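The cytosolic ribosomal protein genes were followed in sorted mouse hepatocytes with and without YAP and TAZ, before and after toxic liver injury. Members were the rows whose symbol is Rps, Rpl or Rplp followed by a number and at most 1 of the letters a, l or x, or is Rpsa, which gave 82 of the 37141 gene rows. They were 32 genes of the small subunit, 47 of the large subunit and the 3 genes of the stalk, on 19 chromosomes. The annotation gives 80 of them as protein coding and 2, Rpl6l and Rps4l, as pseudogenes. Of the 82, 58 passed the filter on low counts and could be tested, 24 did not, and 1 of these (Rpl10l) had no count in any library.

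All mice carried Yapflox/flox and Tazflox/flox alleles, and each of the 4 groups held 3 libraries of 500000 hepatocytes sorted by flow cytometry. The Yap/Taz KO + CCl4 mice were given AAV8 carrying Cre behind the hepatocyte-directed TBG promoter, at 5e+11 genome copies into the tail vein, 3 weeks later carbon tetrachloride (CCl4) at 1 ml/kg in corn oil, and were collected 48 h after the toxin. The ctrl + CCl4 mice, labelled wild type in effect, were given the same toxin and no Cre. The Yap/Taz KO mice were given the Cre virus alone and collected 3 weeks later, and ctrl mice have no treatment in the labels. The labels name no control vector and no vehicle injection for the remaining groups, so an effect of Cre or toxin cannot be told apart from that of its vector or injection, and cells other than hepatocytes should keep both alleles. No age is stated.

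Ribosomal proteins are built into the small subunit, which decodes mRNA, and the large subunit, which joins amino acids; the acidic stalk of the large subunit recruits translation factors. They are made in every cell, and their mRNAs start with a C followed by a run of pyrimidines, the 5′ terminal oligopyrimidine (TOP) motif, through which mTORC1 and the RNA-binding protein LARP1 control how much of the mRNA is translated and how stable it is. An mRNA level therefore does not give the rate at which the protein is made. In liver, ribosome production is known to rise when hepatocytes leave rest and grow.

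The libraries held between 1617761 and 3028951 counts. Yap1 was at 14.8, 14.2 and 14.4 CPM (counts per 1e+06 counts, with library sizes scaled by TMM) in Yap/Taz KO + CCl4, against 53.5, 50.6 and 65.7 CPM in ctrl + CCl4. It was at 22.2, 9.65 and 14.9 CPM in Yap/Taz KO, against 40.3, 61.9 and 71.8 CPM in ctrl. Both pairs of groups were apart; the sources used here do not say which exons were removed, so a 3′ tag need not be lost. All 14 hepatocyte markers were detected well enough to be tested, and their sums ran from 68540 to 185700 CPM. The library ctrl replicate 1 stood apart, with 1583 CPM over the erythroid markers against 19.6 to 154 CPM in the other 11 libraries, 2795 CPM over the macrophage markers against 516 and 643 CPM in the other ctrl libraries, and 1456 CPM over the stellate markers against 328 and 493 CPM there. For the comparisons with ctrl, call counts, medians and some single values of the ribosomal protein genes are also given without it. The counts and medians of the other gene lists and of the cell type markers are given with it only.

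The sequences at the transcription starts show the feature that the family is known for. Of the 82 members, 60 had a promoter entry in the RefSeq table (build GRCm38.p6), 10 of these with more than 1 start. A C at the annotated start followed by at least 4 C or T bases was found in 13 of the 60 (21.7%), against 813 of 27025 genes with an entry (3.01%). Within 10 bases of the start on either side it was found in 38 of the 60 (63.3%), against 34.4% of all genes, so in many members the annotated start lies a few bases from such a run. The windows below reach from 10 bases before to 20 bases from the start on and are shown for members that rose after injury, with the longest run of C and T in capitals. The first 5 have their longest run across the annotated start, and the last 2 do not. Rpl13, Rpl13a, Rpl39 and Rplp0, which also rose after injury and are not shown, had no such run across the start either.
Rps24, chr14:24490668-24490697, plus strand: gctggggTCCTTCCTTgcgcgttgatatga
Rps10, chr17:27635225-27635254, minus strand: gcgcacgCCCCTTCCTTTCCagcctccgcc
Rplp2, chr7:141447641-141447670, plus strand: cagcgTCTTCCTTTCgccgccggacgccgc
Rpl14, chr9:120571507-120571536, plus strand: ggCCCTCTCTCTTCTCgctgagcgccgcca
Rpl27a, chr7:109519185-109519214, plus strand: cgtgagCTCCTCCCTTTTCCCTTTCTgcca
Rps3, chr7:99483690-99483719, minus strand: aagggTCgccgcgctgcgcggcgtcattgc
Rpl41, chr10:128549149-128549178, minus strand: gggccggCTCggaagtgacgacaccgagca

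Rps24 has a further annotated start, not shown. The run was 20 bases long in Rpl27a, 14 in Rpl14, 13 in Rps10, 10 in Rplp2 and 9 in Rps24, and 3 in Rpl41 and 2 in Rps3. In the 300 bases from 250 before to 50 after the start, CCGGAAG on either strand, the core of sites bound by ETS factors, was present in 25 of 60 members (41.7%) and in 9.93% of all genes. CTCTTTC on the plus strand, which can lie inside a TOP run, was present in 13 members (21.7%) and in 4.60% of all genes. GGAATG on either strand, the core of sites bound by the TEAD factors that YAP and TAZ work through, was present in 6 members (10.0%) and in 16.6% of all genes, and TATAAA on the plus strand in 5 members (8.33%) and in 9.77% of all genes. These matches describe letters in 1 window and were not tied to any of the changes below.

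Taken as a family, the members held a larger share of the counts after injury. They made up 0.803%, 0.760% and 1.01% of the library in Yap/Taz KO + CCl4, 0.860%, 0.721% and 1.04% in ctrl + CCl4, 0.395%, 0.432% and 0.506% in Yap/Taz KO, and 0.661%, 0.517% and 0.595% in ctrl. Every injured library was above every uninjured one of either genotype, the Yap/Taz KO libraries lay below the ctrl libraries with no overlap, and the 2 injured groups overlapped. Exact 95% binomial intervals, which cover counting error, reached at most 0.013 percentage points to either side, and those of Yap/Taz KO replicate 3 and ctrl replicate 2 overlapped. The means were 0.859% ± 0.135 in Yap/Taz KO + CCl4, 0.874% ± 0.160 in ctrl + CCl4, 0.445% ± 0.0565 in Yap/Taz KO and 0.591% ± 0.0723 in ctrl (SD, n = 3 each). The share after injury was thus 1.93-fold that of the uninjured livers in Yap/Taz KO mice, and 1.48-fold in ctrl mice. Without ctrl replicate 1 the ctrl mean was 0.556% and the share after injury 1.57-fold that of uninjured ctrl livers. In bulk samples, fewer cells of a type and less RNA per cell cannot be told apart.

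A share moves with everything else in the library, and scaling by TMM, which sets the bulk of genes level between libraries, narrowed these gaps. The TMM-scaled sums were 7535, 7019 and 9239 CPM in Yap/Taz KO + CCl4, 7250, 6666 and 7985 CPM in ctrl + CCl4, 4899, 5587 and 5456 CPM in Yap/Taz KO, and 6957, 5503 and 6836 CPM in ctrl. On this scale the Yap/Taz KO + CCl4 libraries still lay above all Yap/Taz KO libraries. The ctrl + CCl4 and ctrl libraries overlapped, as did Yap/Taz KO and ctrl.

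**Figure D1:**
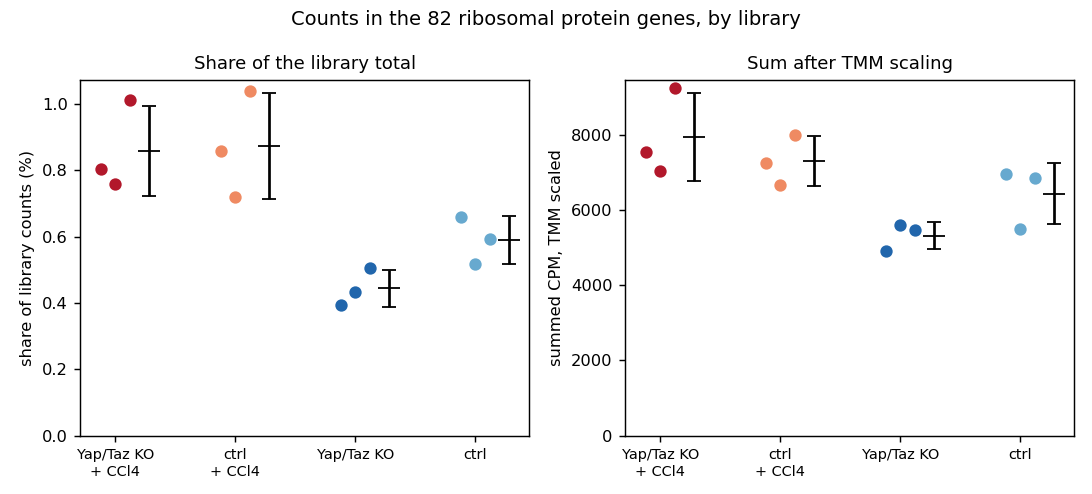
Share of each library's counts in the 82 ribosomal protein genes (left, %) and their TMM-scaled sum (right, CPM) in the 4 groups. Points are libraries, and bars give the mean and SD of 3. The injured libraries hold 0.721% to 1.04% and the uninjured ones 0.395% to 0.661%, while after TMM scaling ctrl + CCl4 and ctrl overlap.

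After injury in knockout livers, 12 of the 58 tested members rose and none fell. They included the small subunit genes Rps24, Rps3 and Rps10, the large subunit genes Rpl13a, Rpl32, Rpl39, Rpl41 and Rpl14, and the stalk genes Rplp0 and Rplp2. That is 20.7% of the tested members, beside 9.42% of all 10780 tested genes called higher and 8.35% called lower in the same comparison (edgeR quasi-likelihood test, Benjamini-Hochberg adjusted over all genes). The median log2 fold change was 0.66 over the members and 0.03 over all genes, and 56 of 58 members had a positive value, between -0.28 and 1.63 in all. In 30 members (51.7%) all 3 Yap/Taz KO + CCl4 libraries were above all 3 Yap/Taz KO libraries, a pattern shown by 21.2% of all genes. They were all below in 0 members, beside 18.1% of all genes.

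Rps24, a small subunit protein needed for processing of the ribosomal RNA precursor and mutated in some patients with Diamond-Blackfan anaemia, had the smallest p. It was at 122, 98.9 and 129 CPM in Yap/Taz KO + CCl4, against 60.1, 50.2 and 35.8 CPM in Yap/Taz KO. The groups were well apart, with a log2 fold change of 1.26 ± 0.23 (SE, edgeR adjusted p = 0.00185).

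Rpl13a, a large subunit protein that in human cells also takes part in silencing of inflammatory mRNAs, was at 257, 252 and 296 CPM in Yap/Taz KO + CCl4, against 147, 162 and 170 CPM in Yap/Taz KO. The spread within each group was small, and the log2 fold change was 0.75 ± 0.18 (edgeR adjusted p = 0.00862). Rpl32 of the large subunit was at 411, 270 and 453 CPM in Yap/Taz KO + CCl4, against 155, 210 and 210 CPM in Yap/Taz KO, a log2 fold change of 0.98 ± 0.24 (edgeR adjusted p = 0.00999). Rps3, which lines the path by which mRNA enters the small subunit, was at 447, 289 and 497 CPM in Yap/Taz KO + CCl4, against 192, 220 and 205 CPM in Yap/Taz KO. In both genes replicate 2 was the lowest of the Yap/Taz KO + CCl4 libraries, yet above every Yap/Taz KO library. The log2 fold change of Rps3 was 1.00 ± 0.25 (edgeR adjusted p = 0.0128).

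Of the 3 stalk genes 2 rose. Rplp0, which anchors the stalk, was at 180, 187 and 261 CPM in Yap/Taz KO + CCl4, against 104, 117 and 139 CPM in Yap/Taz KO (log2 fold change 0.80 ± 0.23, edgeR adjusted p = 0.0268). Rplp2, one of the acidic proteins that extend from it, was at 111, 125 and 154 CPM in Yap/Taz KO + CCl4, against 80.7, 87.3 and 77.9 CPM in Yap/Taz KO (log2 fold change 0.67 ± 0.20, edgeR adjusted p = 0.0356). Neither gene overlapped between the groups. Rplp1, the partner of Rplp2, was at 251, 263 and 266 CPM in Yap/Taz KO + CCl4, against 201, 219 and 129 CPM in Yap/Taz KO, and did not pass the test although the groups were apart. Rpl39, which lines the tunnel through which the new chain leaves, was at 102, 77.1 and 121 CPM in Yap/Taz KO + CCl4, against 46.6, 43.0 and 66.4 CPM in Yap/Taz KO (log2 fold change 0.94 ± 0.24, edgeR adjusted p = 0.0136). Rpl41, Rpl14 and Rps10, named here after their values were seen, had log2 fold changes of 0.83, 0.69 and 0.80 (edgeR adjusted p = 0.0371, 0.0485 and 0.05). Rpl14 and Rps10 passed only just.

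**Figure D2:**
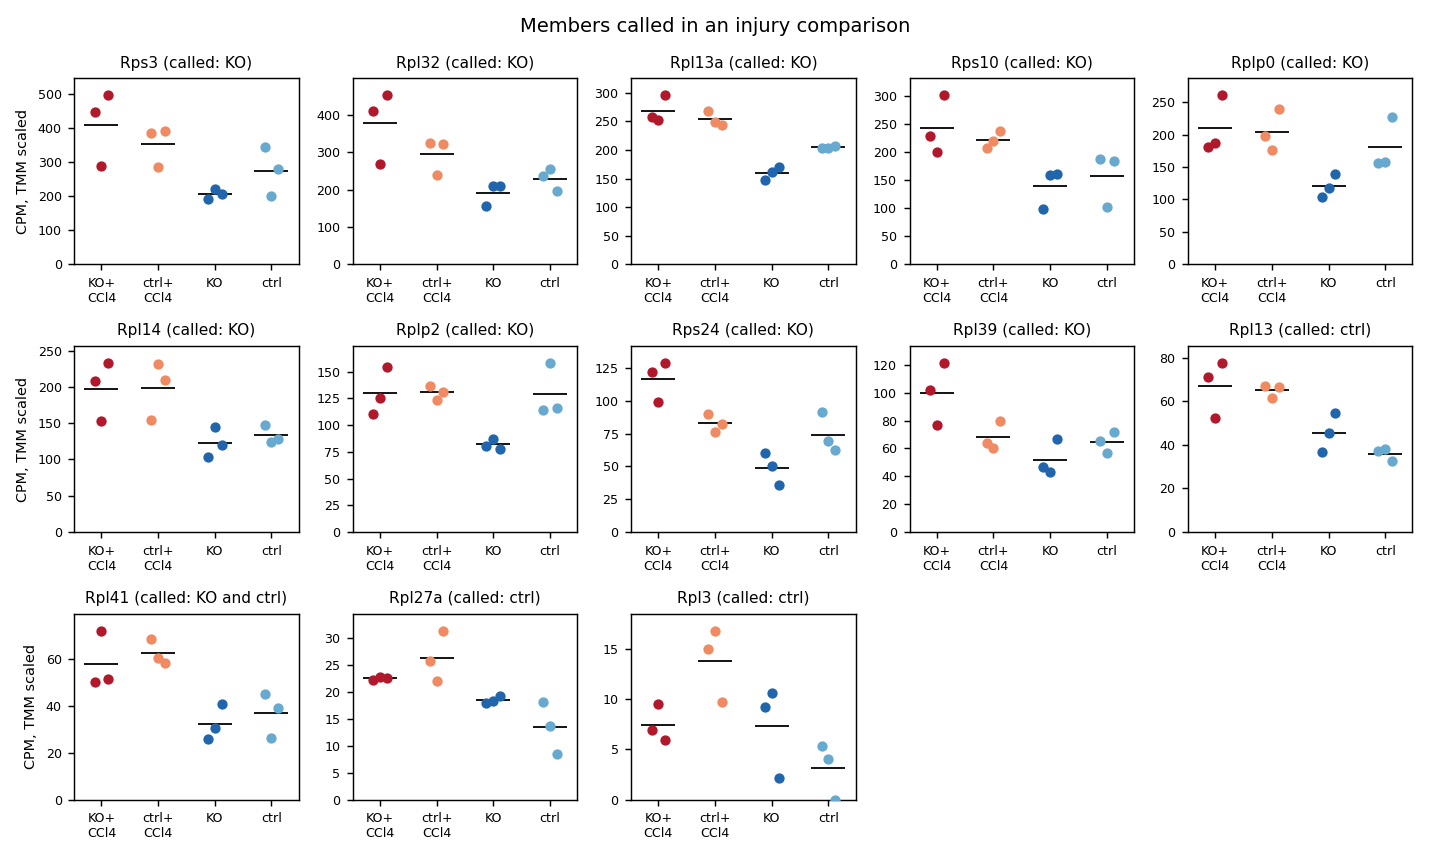
Level (CPM, TMM scaled) in each library of members called in an injury comparison and reported by name, ordered by mean level; the heading names the genotype in which each was called. Points are libraries and lines are means of 3; in Rps24 the Yap/Taz KO + CCl4 libraries lie at 98.9 to 129 CPM and the Yap/Taz KO libraries at 35.8 to 60.1 CPM.

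The number called hung on single libraries. It was 3 without Yap/Taz KO + CCl4 replicate 3, the Yap/Taz KO + CCl4 library with the largest share of ribosomal protein counts, and 5 without Yap/Taz KO replicate 1 or replicate 2. In the fit that called 3, 5.17% of the members and 6.85% of all genes were called higher, and without Yap/Taz KO replicate 1 it was 8.47% of the members and 8.46% of all genes, so the members' share was below that of all genes in the one fit and level with it in the other. Without Yap/Taz KO replicate 2 it was 8.62% of the members and 5.62% of all genes. The number called was 7 without Yap/Taz KO + CCl4 replicate 1 and 7 without ctrl + CCl4 replicate 3, and 8 without Yap/Taz KO + CCl4 replicate 2 and 8 without Yap/Taz KO replicate 3. Rps24 and Rpl13a passed in each of the 12 fits that left out 1 library. Rpl32 passed in 11 of them, Rps3 in 10, Rpl39 and Rplp0 in 9, Rplp2 and Rpl41 in 6, and Rpl14 and Rps10 in 3. In the other 9 of these fits 11.9% to 25.4% of the members were called higher, beside 5.96% to 11.6% of all genes. With library totals in place of TMM, 30 members were called higher, beside 16.8% of all genes.

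In control livers, 4 of the 58 tested members, Rpl13, Rpl27a, Rpl41 and Rpl3, rose after the injury and none fell. All 4 belong to the large subunit. That is 6.90% of the members, beside 10.5% of all tested genes called higher and 12% called lower, so the share called was below that of all genes. The median log2 fold change was 0.17 over the members and 0.03 over all genes, and 40 of 58 members had a positive value. In 16 members (27.6%) all ctrl + CCl4 libraries were above all ctrl libraries, beside 19.1% of all genes. They were all below in 2 members (3.45%), beside 17.5% of all genes. Without ctrl replicate 1, 22 members (37.9%) were all above, beside 29.5% of all genes. All below were 2 members (3.45%), beside 23.9% of all genes. Without that library, 43 of 58 members had a positive value.

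Rpl13, a large subunit protein, was at 67.02, 61.6 and 66.4 CPM in ctrl + CCl4, against 37.0, 38.3 and 32.7 CPM in ctrl, with little spread in either group. It rose by 0.85 ± 0.22 on the log2 scale (edgeR adjusted p = 0.0132) and passed in each fit that left out 1 library. Rpl27a, also of the large subunit, was at 25.6, 21.96 and 31.3 CPM in ctrl + CCl4, against 18.1, 13.6 and 8.53 CPM in ctrl (log2 fold change 0.94 ± 0.29, edgeR adjusted p = 0.0321). Rpl41, a very short and basic protein at the contact of the subunits, was at 68.5, 60.4 and 57.99 CPM in ctrl + CCl4, against 44.8, 26.2 and 39.1 CPM in ctrl (log2 fold change 0.76 ± 0.26, edgeR adjusted p = 0.0455). The log2 fold changes without ctrl replicate 1 were 1.22 in Rpl27a and 0.94 in Rpl41. Of the 12 fits that left out 1 library, Rpl27a passed in 8 and Rpl41 in 3. Rpl41 was the 1 member called in both genotypes, 1 of the 4 called in ctrl and 1 of the 12 called in Yap/Taz KO.

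Rpl3, close to the site where the peptide bond forms, was at 15.02, 16.8 and 9.67 CPM in ctrl + CCl4, against 5.35, 4.03 and 0 CPM in ctrl. Its log2 fold change of 2.02 ± 0.69 (edgeR adjusted p = 0.0469) rests on few counts, and 76.5% of its 3′ words are found in other genes too. It was 2.596 without ctrl replicate 1 and 1.55 without ctrl replicate 3, and passed in 3 of the 12 fits that left out 1 library. Without ctrl replicate 1, which stood apart in its blood, macrophage and stellate markers, 7 members were called (12.1%, beside 15.4% of all genes called higher) and the median was 0.28. Leaving out any 1 library gave between 1 and 7 called members: 1 without ctrl replicate 2, 1 without ctrl replicate 3, 1 without ctrl + CCl4 replicate 1 and 1 without ctrl + CCl4 replicate 3, and 2 without ctrl + CCl4 replicate 2 or without any of the 3 Yap/Taz KO + CCl4 libraries. A fit of these 6 libraries alone called 1 (1.85%, beside 7.59% of all genes), and DESeq2 called 7 (12.1%, beside 12.7%). Over the fits that left out 1 library, 1.69% to 12.1% of the members and 6.89% to 15.4% of all genes were called higher, and in each the members' share was the smaller. With library totals 14 were called, beside 18.3% of all genes.

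The choice of scaling set the size of these responses. With library totals the median log2 fold change of the members was 1.05 in Yap/Taz KO + CCl4 against Yap/Taz KO, and 0.56 in ctrl + CCl4 against ctrl. The median over all genes was then 0.40 in both comparisons. Relative to all genes the members stood higher by a similar amount under either scaling, as the plot of medians shows.

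**Figure D3:**
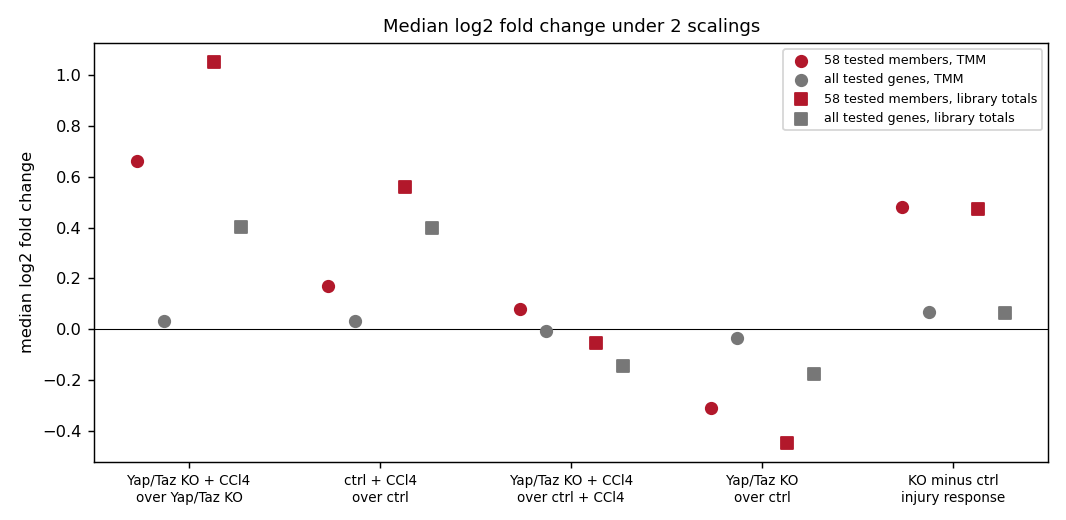
Median log2 fold change of the 58 tested members (red) and of all 10780 tested genes (grey) in the 5 comparisons, with TMM scaling (circles) and library totals (squares). The members stand at 0.66 (TMM) and 1.05 (totals) in the knockout injury comparison, and in Yap/Taz KO + CCl4 over ctrl + CCl4 the sign depends on the scaling.

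The responses of the genotypes were set against each other in the same fit. The difference, Yap/Taz KO response minus ctrl response, had a median of 0.48 over the members and 0.07 over all genes, and was positive in 49 of 58 members, which is 22 of 23 in the small subunit, 24 of 32 in the large subunit and 3 of 3 in the stalk. Without ctrl replicate 1 the median was 0.35 and 42 of 58 were positive. No member passed the test of this difference, and neither did any of the 10780 genes (0% called; edgeR). At an unadjusted p of 0.05, 5 members and 874 of all genes passed, and DESeq2 called 0 members and 12 genes. The 12 and the 4 called members are therefore not shown to respond differently in the genotypes.

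The smallest p in that test belonged to Rps24, with a difference of 1.11 ± 0.33 (edgeR adjusted p = 0.533). Its level was 90.1, 76.0 and 82.2 CPM in ctrl + CCl4, against 91.3, 69.0 and 62.6 CPM in ctrl, which overlap. Rpl39 had a difference of 0.86 ± 0.34 (edgeR adjusted p = 0.589), with 63.7, 60.1 and 79.9 CPM in ctrl + CCl4, against 65.4, 56.4 and 71.8 CPM in ctrl. Rps16, the tested member with the lowest mean CPM, had a difference of 2.53 ± 1.04 (edgeR adjusted p = 0.594), which rests on 80 counts over the 12 libraries. It was 1.66 without ctrl replicate 3 and 2.87 without ctrl replicate 2.

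**Figure D4:**
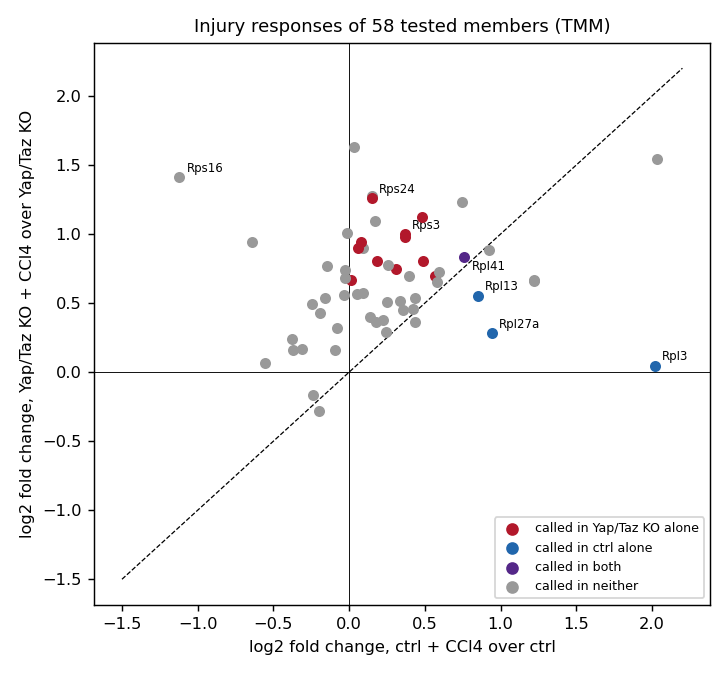
Log2 fold change after injury of the 58 tested members (TMM) in Yap/Taz KO (vertical) against ctrl (horizontal); colours give where a member was called, and the dashed line marks equal responses. Of the 58 points 49 lie above the line, with Rps24 at 1.26 in Yap/Taz KO and 0.15 in ctrl and Rpl3 at 0.04 in Yap/Taz KO and 2.02 in ctrl.

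Without injury, no member passed the test between Yap/Taz KO and ctrl, and no gene did (0% called; edgeR). At an unadjusted p of 0.05, 8 members and 1020 of all genes passed, and DESeq2 called 0 members and 43 genes. DESeq2 gave 10 of the 58 members no adjusted p here, so these could not be called. The median log2 fold change was -0.31 over the members and -0.03 over all genes, and 44 of 58 members had a negative value. In 10 members (17.2%) all Yap/Taz KO libraries were below all ctrl libraries, beside 4.92% of all genes. They were all above in 1 member (1.72%), beside 5.81% of all genes. Without ctrl replicate 1, 11 members (19%) were all below, beside 10.7% of all genes. All above were 2 members (3.45%), beside 12.6% of all genes. Without that library, 42 of 58 members had a negative value. The median was then -0.23 over the members and 0.05 over all genes.

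Rplp2 and Rps21 were among the members with the smallest p and missed the threshold. Rplp2 was at 80.7, 87.3 and 77.9 CPM in Yap/Taz KO, against 114, 158 and 116 CPM in ctrl, a log2 fold change of -0.66 ± 0.21 (edgeR adjusted p = 0.394). Its groups were apart. Rps21 was at 145, 153 and 163 CPM in Yap/Taz KO, against 291, 160 and 275 CPM in ctrl, and overlapped between them (log2 fold change -0.66 ± 0.23, edgeR adjusted p = 0.438). The values without ctrl replicate 1 were -0.74 in Rplp2 and -0.49 in Rps21. The Yap/Taz KO libraries are the baseline of the injury comparison in knockouts, so the values of these comparisons are not independent.

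After injury, no member passed between Yap/Taz KO + CCl4 and ctrl + CCl4, and no gene did (0% called; edgeR). At an unadjusted p of 0.05, 3 members and 613 of all genes passed, and DESeq2 called 0 members and 17 genes. DESeq2 gave 18 of the 58 members no adjusted p here, so these could not be called. The median log2 fold change was 0.08 over the members and -0.01 over all genes with TMM, and -0.06 and -0.15 with library totals, so the sign of the members' median turned with the scaling. It was also -0.03 without Yap/Taz KO + CCl4 replicate 3. Only 2 members lay wholly above and 2 wholly below between these groups (3.45% each), beside 8.5% and 7.81% of all genes.

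The smallest p values belonged to Rpl39, Rps28 and Rps24. Rpl39 was at 102, 77.1 and 121 CPM in Yap/Taz KO + CCl4, against 63.7, 60.1 and 79.9 CPM in ctrl + CCl4 (log2 fold change 0.56 ± 0.24, edgeR adjusted p = 0.852), with some overlap. Rps28 of the small subunit was at 34.7, 23.7 and 39.9 CPM in Yap/Taz KO + CCl4, against 19.8, 19.2 and 24.5 CPM in ctrl + CCl4 (log2 fold change 0.63 ± 0.28, edgeR adjusted p = 0.854), again with some overlap. Rps24 did not overlap, with a value of 0.49 ± 0.23 on the log2 scale (edgeR adjusted p = 0.859).

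Rpl4 and Rpl8 were among the 3 most counted members, with means of 537 and 343 CPM over the 12 libraries. The counts carry no length correction and many members share 3′ sequence with copies, so these ranks are of rows in the table. Rpl4, which narrows the exit tunnel, was at 539, 561 and 657 CPM in Yap/Taz KO + CCl4, 523, 477 and 596 CPM in ctrl + CCl4, 533, 466 and 408 CPM in Yap/Taz KO, and 458, 448 and 781 CPM in ctrl. Rpl8, a large subunit core protein, was at 387, 340 and 457 CPM in Yap/Taz KO + CCl4, 350, 377 and 432 CPM in ctrl + CCl4, 246, 305 and 314 CPM in Yap/Taz KO, and 303, 326 and 274 CPM in ctrl. Neither passed an injury comparison with edgeR. The tested members with the lowest mean CPM were Rps16, Rpl19 and Rpl21, with 80, 90 and 108 counts in all.

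Rpsa, a small subunit protein that also serves as a laminin receptor, was at 27.2, 32.9 and 30.8 CPM in Yap/Taz KO + CCl4, 23.8, 21.1 and 28.7 CPM in ctrl + CCl4, 11.4, 19.8 and 17.9 CPM in Yap/Taz KO, and 17.3, 14.1 and 6.40 CPM in ctrl. The injured libraries were above the uninjured ones in both genotypes, but Rpsa passed in neither with edgeR; DESeq2 called it in both.

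One library-wise pattern was seen in Rpl34 and was picked out after its values were seen. It had 12, 286 and 413 counts in Yap/Taz KO + CCl4, 316, 9 and 530 in ctrl + CCl4, 8, 5 and 197 in Yap/Taz KO, and 471, 104 and 15 in ctrl. Every group held at least 1 library with 15 or fewer counts and 1 with 197 or more. Rpl30, likewise picked out, had 62 counts in Yap/Taz KO + CCl4 replicate 3 and at most 9 in every other library.

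Many members that every cell is known to need were nearly without counts. The 24 members below the filter, with 0 to 99 counts each over all 12 libraries, included Rpl10, Rpl10a, Rpl10l, Rpl11, Rpl24, Rpl27, Rpl28, Rpl30, Rpl36, Rpl36a, Rpl39l, Rpl3l, Rpl5, Rpl6l, Rpl7a, Rps12, Rps13, Rps23, Rps27, Rps27a, Rps4x, Rps6 and Rps7. Rps6, the substrate of the S6 kinases and a common readout of mTORC1, had 2 counts. Rpl5 and Rpl11, which bind the p53 regulator MDM2 when they are not in a ribosome, had 8 and 17, and Rps27a, made as a fusion with ubiquitin, had 28. A count near 0 in this table cannot be read as a missing mRNA.

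Ribosomal protein genes have many processed copies in the genome, and the annotated 3′ end was searched for sequence shared with other genes. This covers that end only and not the whole gene. Rpl6 had 0% of its words shared, while 100% of the words of its copy Rpl6l were found in Rpl6. The share of a member's 50-base words in its last 300 bases that also occur in another annotated gene had a median of 86.9% in the 24 members below the filter, and of 62.7% in the 58 that passed. Of 12 members with 90% or more of their words shared, 4 passed the filter. Of 53 members with 10% to under 90% shared 42 passed, and of 17 members with under 10% shared 12 did. Spearman's rho between the shared percentage and the mean CPM was -0.42 over the 82 members, given as a description. Rpl5, Rpl11, Rpl10l, Rpl3l and Rpl39l had no shared word and were below the filter all the same.

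**Figure D5:**
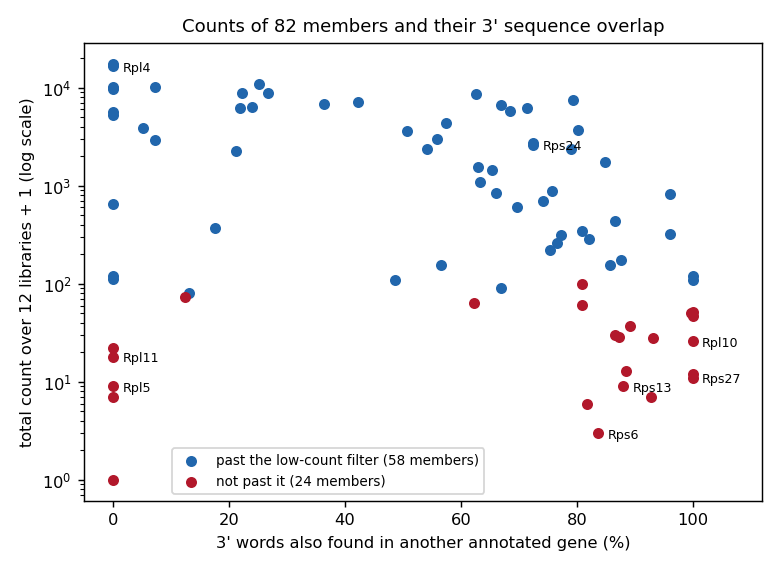
Total count over the 12 libraries plus 1 (log scale) of the 82 members against the percentage of their 3′ words found in another annotated gene; blue members passed the low-count filter and red ones did not. Rpl10 and Rps27 have all words shared and 25 and 10 counts, while Rpl4 has none shared and 16426.

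In 12 members a row that holds at least 50% of the member's words had more counts than the member itself, and 10 of these members were below the filter. Rps13 is the plainest case. The row of Rps13 held 8 counts and that of its copy Rps13-ps1 held 2686, although the last 60 coding bases of the annotated transcripts (GENCODE M21, GRCm38) differ at 2 positions, which are in capitals, and the 456 coding bases at no more. Rps13 lies at chr7:116331505-116334195 on the minus strand and Rps13-ps1 at chr8:87047689-87048226 on the plus strand.
Rps13: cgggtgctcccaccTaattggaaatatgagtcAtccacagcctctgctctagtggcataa
Rps13-ps1: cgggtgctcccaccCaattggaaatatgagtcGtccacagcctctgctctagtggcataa

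The row of Rps13-ps1 had 307, 325 and 443 counts in Yap/Taz KO + CCl4, 247, 254 and 316 in ctrl + CCl4, 96, 161 and 205 in Yap/Taz KO, and 139, 126 and 67 in ctrl, while Rps13 had at most 2 in any library. Rpl10, a late-joining large subunit protein, held 25 counts and Rpl10-ps3 held 2354, with all words of Rpl10 shared. Rpl28 held 6 and Rpl28-ps1 519, and Rps12 held 11 and Rps12-ps9 295. Rps27a held 28 and the row named Rps27a-ps3 349, although that row was not among those holding at least 50% of its words. Among genes outside the name pattern, Rps3a1, the gene of a small subunit protein, held 3 counts and Rps3a3 held 5799. Whether the counting assigned reads of the parent genes to these copies was not tested, since no reads were used.

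The paralog pairs showed the same limits. Rps27 held 10 counts, the copy Rps27rt 395 and the paralog Rps27l, a p53 target in mouse and human, 6129. Rps27l was at 236, 204 and 310 CPM in Yap/Taz KO + CCl4, 238, 140 and 149 CPM in ctrl + CCl4, 151, 184 and 183 CPM in Yap/Taz KO, and 159, 173 and 257 CPM in ctrl, and passed no comparison. Rpl3 held 262 counts and Rpl3l, its form in heart and skeletal muscle, 6. Rpl39 held 2274 and Rpl39l, its form in testis, 21, of which 3 were in Yap/Taz KO + CCl4 replicate 1, 7 in ctrl + CCl4 replicate 2 and 11 in ctrl + CCl4 replicate 3. Rps4x held 62 and Rps4l 371. Rpl10l, the testis form of Rpl10, had 0 counts, which allows for up to 3.

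When each member was summed with the rows holding at least 50% of its words, an alternative chosen after seeing the data, 111 rows were joined, 80 of them with counts, and 68 members passed the filter. Of these 68, 12 (17.6%) were called higher after injury in Yap/Taz KO, beside 9.42% of all genes, and 4 (5.88%) in ctrl, beside 10.5%. The medians were 0.67 and 0.18. The family's share was then 0.904% ± 0.144 in Yap/Taz KO + CCl4, 0.916% ± 0.167 in ctrl + CCl4, 0.469% ± 0.0572 in Yap/Taz KO and 0.613% ± 0.0750 in ctrl (SD, n = 3 each). Among the 10 members that came in, the sum for Rps13 averaged 114 CPM in Yap/Taz KO + CCl4, 90.5 CPM in ctrl + CCl4, 72.3 CPM in Yap/Taz KO and 57.2 CPM in ctrl, and did not pass after injury (edgeR adjusted p = 0.0728 in Yap/Taz KO and 0.0637 in ctrl).

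Of 6 further genes of ribosomal proteins or their paralogs that the name pattern leaves out, 3 were below the filter, Fau and Rps3a1 among them, and Rpl36al, Rpl22l1 and Rpl7l1 passed it. Rpl22l1, the paralog of Rpl22, was at 95.7, 59.1 and 80.7 CPM in Yap/Taz KO + CCl4, against 17.3, 40.5 and 42.2 CPM in Yap/Taz KO, and rose (log2 fold change 1.23 ± 0.32, edgeR adjusted p = 0.0145). It was at 67.4, 46.1 and 52.8 CPM in ctrl + CCl4, against 42.4, 34.2 and 53.3 CPM in ctrl, and did not pass there. Rpl36al and Rpl7l1 passed no comparison.

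Genes that work with the ribosome were counted in the same fits. Of 19 tested translation factors and other mRNAs known to carry the TOP motif, 3 rose and 2 fell after injury in Yap/Taz KO and 1 rose in ctrl. Of all tested genes, 9.42% were called higher and 8.35% lower in Yap/Taz KO, and 10.5% and 12% in ctrl. In Yap/Taz KO, Rack1, a scaffold on the small subunit, rose (log2 fold change 0.94, edgeR adjusted p = 0.00963), as did Eef1g, a subunit of the complex that recharges elongation factor 1 (1.07, edgeR adjusted p = 0.041) and the histone chaperone gene Nap1l1, named after its value was seen (0.71, edgeR adjusted p = 0.0433). Eif4b, a helper of the initiation helicase, fell by 1.03 on the log2 scale (edgeR adjusted p = 0.003), and Eef2, the translocation factor, fell by 0.60 (edgeR adjusted p = 0.031). In ctrl, Npm1, a nucleolar chaperone, rose (0.69, edgeR adjusted p = 0.0232).

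Of 38 tested ribosome biogenesis genes, 3 rose in Yap/Taz KO and 7 in ctrl after injury, and none fell. The counts of this paragraph stand beside 9.42% of all genes called higher and 8.35% called lower in Yap/Taz KO. In ctrl these shares were 10.5% and 12%. Nop58, a core protein of the particles that methylate ribosomal RNA, averaged 127 CPM in Yap/Taz KO + CCl4 and 56.1 CPM in Yap/Taz KO, and 138 CPM in ctrl + CCl4 and 38.5 CPM in ctrl. Its log2 fold changes were 1.18 (edgeR adjusted p = 0.00675) and 1.84 (edgeR adjusted p = 0.000244). Ncl, the nucleolar protein nucleolin, rose in ctrl (0.92, edgeR adjusted p = 0.00271), as did the RNA helicase gene Ddx21 (0.84, edgeR adjusted p = 0.00397). The difference of the injury responses had a median of -0.29 over the biogenesis genes and 0.48 over the ribosomal protein genes, with no gene of either list passing its test. None of 13 mTORC1 and TOP regulators passed in any comparison. Of 70 tested mitochondrial ribosomal protein genes, 0 rose and 1 fell in Yap/Taz KO, and 1 rose and 5 fell in ctrl. Of 12 tested p53 targets, 1 rose in Yap/Taz KO and 3 in ctrl.

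Markers of some other cell types moved with injury too. Their counts stand beside the same shares of all genes, 9.42% higher and 8.35% lower in Yap/Taz KO and 10.5% and 12% in ctrl. The 7 tested of 8 monocyte and neutrophil markers all rose in Yap/Taz KO and 4 rose in ctrl; their sum was 161 to 223 CPM in Yap/Taz KO + CCl4, 156 to 291 CPM in ctrl + CCl4, 4.83 to 17.3 CPM in Yap/Taz KO and 19.1 to 108 CPM in ctrl. In uninjured libraries up to 4 of these 8 were at 0, and in injured ones at most 1. Of 12 macrophage and Kupffer cell markers 4 rose in Yap/Taz KO and 3 in ctrl, with sums of 2019 to 3050 CPM in Yap/Taz KO + CCl4, 2502 to 4388 CPM in ctrl + CCl4, 239 to 1151 CPM in Yap/Taz KO and 516 to 2795 CPM in ctrl, and none at 0 in any library. Of 11 stellate markers 6 rose in Yap/Taz KO and 4 in ctrl, with sums of 1767 to 1987 CPM in Yap/Taz KO + CCl4, 1188 to 2238 CPM in ctrl + CCl4, 312 to 854 CPM in Yap/Taz KO and 328 to 1456 CPM in ctrl, and none at 0. None of 9 endothelial markers passed in either genotype, with median log2 fold changes of 0.38 in Yap/Taz KO and -0.20 in ctrl and sums of 820 to 1046 CPM in Yap/Taz KO + CCl4, 772 to 978 CPM in ctrl + CCl4, 433 to 1081 CPM in Yap/Taz KO and 541 to 1895 CPM in ctrl. Of 4 tested erythroid markers none passed in Yap/Taz KO (median 0.85) and 2 fell in ctrl (median -2.91). The erythroid sums were 119, 92.7 and 31.6 CPM in ctrl + CCl4, against 1583, 19.6 and 154 CPM in ctrl. By these sums ctrl replicate 1 was far above all others. Replicate 3 of ctrl (154 CPM) lay above every ctrl + CCl4 library, and replicate 2 of ctrl (19.6 CPM) below every one. Whether the fall holds without ctrl replicate 1 was not tested. Of 2 tested cholangiocyte markers 1 rose in each genotype. Of 14 hepatocyte markers 4 fell in Yap/Taz KO and 11 in ctrl. The share of counts from mitochondrially encoded genes ran from 10.1% to 12.6% in Yap/Taz KO + CCl4, 7.001% to 18.3% in ctrl + CCl4, 9.29% to 18.3% in Yap/Taz KO and 4.88% to 11.6% in ctrl. The part of these in the ribosomal protein results was not tested.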

How the data were processed

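Per the labels' protocols, RNA of sorted mouse hepatocytes went into QuantSeq 3′ FWD libraries, in which each read starts close to the poly(A) end of a transcript. The deposited table gives raw read counts by gene symbol for 12 libraries; all values are whole numbers with unequal totals, so no scaling by the authors is visible. The submitters' processing notes list STAR 2.6.1d, cutadapt, FastQC and 2 build names, GRCm38 and mm10, with no roles. How reads matching several places were treated, which counter and annotation were used, and whether molecular identifiers were read is not given in these sources.

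The test was edgeR's (version 4.0.16, under R 4.3.3). After the filterByExpr filter, with its minimum count of 10 and minimum total of 15, TMM factors scaled the libraries and 1 coefficient for each group was fitted over all 12 libraries. The quasi-likelihood F test was adjusted by Benjamini-Hochberg over all 10780 genes kept, at 0.05. CPM values use TMM-scaled library sizes. Groups and replicates follow the labels. These do not state that samples were separate animals, so p-values refer only to the spread among these samples, possibly a technical one. Libraries of a group always differed by more than sampling noise, at 9.06 to 28.9 chi-square units for each degree of freedom. The fit was tested on simulated counts. Alternatives were library totals, RLE factors, TMM factors without the ribosomal protein genes, no low-count filter, DESeq2 1.42.0, a replicate block, fits of the samples compared alone, leaving out each library, and 6 further ribosomal protein genes. Sums of members with their copies were added after seeing the data.

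For sequence overlap, the last 300 bases of each member's annotated mRNA (GENCODE M21, GRCm38) were split into 50-base words, which were searched in the annotated transcripts of other genes. Where a member had several annotated mRNAs, the one with the largest shared percentage was kept. Its percentage is thus the highest of that member's mRNAs. Promoter sequences came from RefSeq (GRCm38.p6).

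The named genes were the stalk genes, Rps6, Rpl5, Rpl11, Rps27a, Rpsa, 5 pairs of paralogs, the 3 most and 3 least counted members tested, up to 5 called members per direction by smallest p, the 3 with the smallest p where none was called, members below the filter, the further ribosomal protein genes, and up to 4 called genes of each other list. The members and lists were chosen with earlier results of these data known. Some genes that enter the counts are not reported here by name. Intervals cover counting error only.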

Additional observations from a re-analysis of the deposited data

How the results depend on the processing

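No ribosomal protein gene was called lower in an injury comparison under any alternative run. In Yap/Taz KO the 12 calls were 30 with library totals (51.7% of members, beside 16.8% of all genes called higher). They were 18 with DESeq2 (31%, beside 11.9%) and 17 with the 6 libraries alone (32.1%, beside 12.2%). With 1 library left out they were 3 to 15 (5.17% to 25.4%, beside 5.62% to 11.6%). The median log2 fold change of 0.66 was 1.05 with library totals and 0.52 to 0.73 with 1 library left out. In ctrl the 4 calls were 14 with library totals (24.1% of members, beside 18.3% of all genes called higher) and 7 with DESeq2 (12.1%, beside 12.7%). They were 2 without the low-count filter (2.47%, beside 7.02%) and 1 with the 6 libraries alone (1.85%, beside 7.59%). With 1 left out they were 1 to 7 (1.69% to 12.1%, beside 6.89% to 15.4%). The median of 0.17 was 0.56 with library totals and 0.06 to 0.33 with 1 left out. Between Yap/Taz KO and ctrl the 0 calls became 1 of 81 members without the low-count filter, where 210 of 19259 genes were called. It was Rpl34, called lower, with 8, 5 and 197 counts in Yap/Taz KO and 471, 104 and 15 in ctrl, which overlap. The calls stayed 0 with any 1 library left out, with medians of -0.39 to -0.22. Between Yap/Taz KO + CCl4 and ctrl + CCl4 the median of 0.081 was -0.056 with library totals and -0.027 to 0.17 with 1 left out. The difference of the injury responses kept 0 calls, with medians of 0.35 to 0.57. The family's share in Yap/Taz KO, 0.445%, was 0.514% without mitochondrially encoded counts in the total.

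Some log2 fold changes changed sign. In ctrl + CCl4 against ctrl, Rpl4 was 0.321 and Rps27l 0.229 with library totals, and Rplp2 was -0.005302 with the 6 libraries alone. With 1 library left out, the values in that comparison ran from -0.0498 to 0.191 in Rpl39, -0.215 to 0.234 in Rpl4, -0.0705 to 0.185 in Rplp2 and -0.422 to 0.0854 in Rps27l. Rpl3 in Yap/Taz KO ran from -0.409 to 0.431. None of these had passed the test. The cause of these moves was not tested.

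Correlations of same-numbered libraries from different groups, after taking out the group means, ran from -0.152 to 0.323, and 7 of 18 were over 0.1. Libraries with different numbers were not compared, so whether replicate numbers pair the libraries was not settled. With a replicate block the calls were 12 in Yap/Taz KO and 3 in ctrl after injury and 0 elsewhere, with medians of 0.66 and 0.21. A group with 1 library left out takes its spread from all groups. Depth limits the members with few counts, such as Rps16 and Rpl3.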
